A study of Mus musculus with 39 samples.

Results

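Classical monocytes circulate in blood, carry the surface protein Ly6C and the chemokine receptor CCR2, and enter tissues, where they can become macrophages. The healthy joint lining also holds long-lived macrophages. The FI1 population of the ankle is of interest beside these cells because, like blood classical monocytes, it expressed the Ly6C gene Ly6c2 in healthy mice. The 3 libraries of ankle FI1 cells from control mice were set against the 3 libraries of blood classical monocytes (CM) from control mice, 6 of the 39 libraries of the series. Libraries were assigned by their labels, and the pair of groups was taken up with Ly6c2 levels in these data known.

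The mice were C57BL/6 animals of 21 to 37 weeks. Control animals, whose genotype is labelled Flipflox/floxCD11c+, carried the floxed Flip gene (Cflar, an inhibitor of death receptor signalling) and were littermates of HUPO mice or matched to them in age and sex. HUPO mice (Flipflox/floxCD11ccre), which have arthritis, carry the same floxed gene and a cre driven by CD11c, a gene of dendritic cells that some monocytes and macrophages also express. FI denotes ankle macrophages with intermediate F4/80, the protein encoded by Emr1 (Adgre1). Cells were sorted by flow cytometry, and each library came from more than 400 cells. The FI1 and CM libraries came from different mice, so source (ankle tissue or blood), its preparation and the mouse cannot be told apart from cell population. Titles in other groups carry x4 or x5 after the mouse number, with no meaning given, and the 6 libraries compared here do not. Of these, the control FH2 library Ank_1085x5 carried both Xist (225 CPM) and Y-linked transcripts (69.6 CPM), and it enters the shared spread and the sex term. P-values measure the spread between libraries, and mice that recur across the 13 groups were fitted as independent libraries. The 3 libraries of a group had also been selected by the authors, who removed the least correlated library in some control groups. Values are in CPM, each gene's count scaled to the library total after trimmed-mean adjustment, and are listed for the CM libraries Bld_1470, Bld_1506 and Bld_1508 and for the FI1 libraries Ank_1167, Ank_1194 and Ank_1392, in that order. CPM is not adjusted for gene length, so levels are compared between libraries and never between genes.

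The CM libraries held 6648175 to 9857653 counts and the FI1 libraries 3132775 to 7587496. Across all genes tested, log2 CPM correlated at r = 0.716 to 0.747 between CM libraries, 0.627 to 0.667 between FI1 libraries and 0.585 to 0.677 between a CM and an FI1 library, and Ank_1167 was as close to the CM libraries as to the other FI1 libraries. Transcripts that mark sex differed completely between the groups. Xist, the X-inactivation RNA of female cells, was at 0.0998, 0 and 0 CPM in the CM libraries and 300.0, 459 and 568 in the FI1 libraries, while 4 Y-linked genes summed to 244, 232 and 378 CPM in CM and were at 0 in FI1. Female and male mice therefore cannot be told apart from FI1 and CM within the controls. Neither Xist nor any of the 4 Y-linked genes was among the genes called below. The lack of a call therefore does not show that the groups are alike. A fit with a term for sex, which draws on other groups of the series that hold both patterns, and the same contrast in HUPO mice are given beside the results.

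Of 12450 genes tested, 234 (1.88%) were called at an adjusted p under 0.05 by edgeR's quasi-likelihood test, 153 higher in FI1 (1.23%) and 81 lower (0.651%). The median log2 fold change over all genes was 0, and all 3 libraries of one group lay above all 3 of the other in 14.9% of genes tested. Of the 234 calls, 203 had groups that did not overlap. The size of the call set depended on the fit. A fit to the 6 libraries alone called 44 genes, 32 of them among the 234, and DESeq2 on the same 39 libraries called 1763. Leaving out Ank_1167 gave 274 calls and Ank_1392 gave 197, against 152 without Ank_1194, 128 without Bld_1470, 138 without Bld_1506 and 131 without Bld_1508. With a term for sex, which moved the median log2 fold change of all genes to 0.14, 151 genes were called, 136 of them among the 234, and 78 of the 234 kept their call whichever of the 6 libraries was left out.

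**Figure D1:**
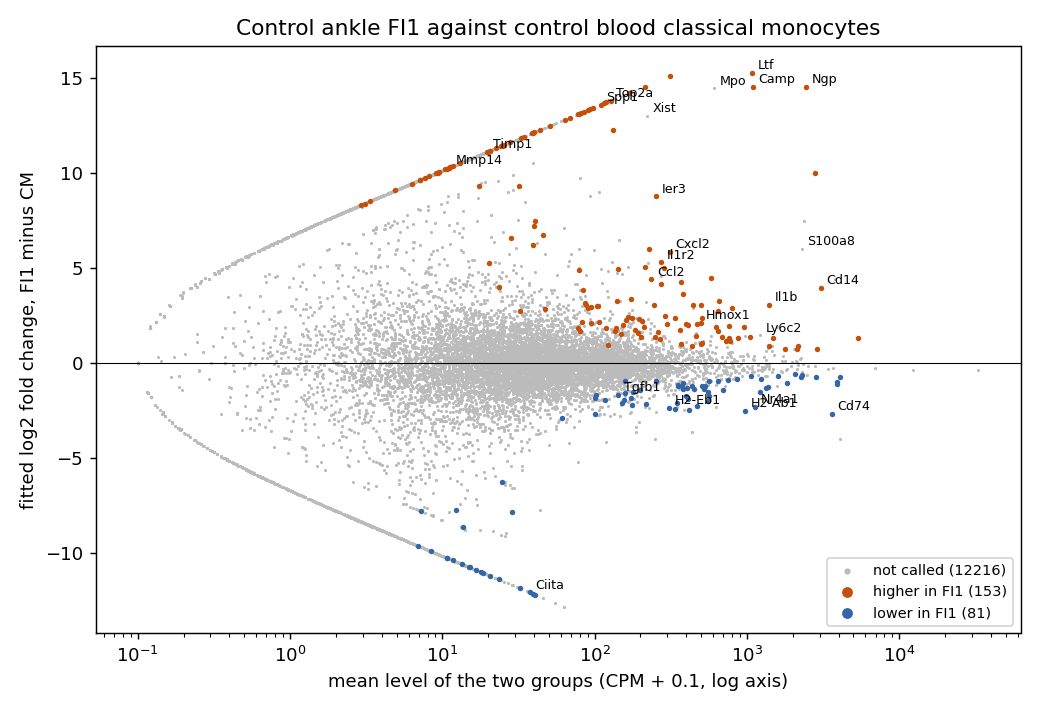
Fitted log2 fold change (FI1 minus CM) against the mean CPM of both groups (log axis) for 12450 genes, with 153 genes called higher in FI1 in orange and 81 called lower in blue. The curved outer edges are genes with 0 counts in one group, whose fitted fold is set by the prior count and is no measurement of size.

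Of 19 genes that define classical monocytes, 1 rose in FI1 (Cd14), 1 fell (Clec4a1, a C-type lectin) and 17 were not called, beside 1.88% called of all genes. In 7 of the 19 all FI1 libraries lay above all CM libraries and in 2 below, against 14.9% of all genes in either direction. The median log2 fold change was 0.62 against 0 over all genes, and the list summed to 11388, 13490.0 and 12182 CPM in CM and 21293, 22268 and 23075 in FI1. Cd14, whose values are given below, made up a large part of the rise in this sum. Mmp8 and Cd177 of this list are also counted in the neutrophil list. Ly6c2 (mm10 chromosome 15, 75108161 to 75112066) was at 532, 899 and 512 CPM in CM and 2623, 1231.3 and 1511 in FI1. Every FI1 library was above every CM library, without a call (log2 fold change 1.47 with SE 0.52, adjusted p = 0.181). Ccr2, the receptor that draws monocytes out of the marrow and into tissue, was at 735, 1224 and 868 CPM in CM and 1196, 688 and 640.4 in FI1, and the groups overlapped (log2 fold change -0.16 with SE 1.21, adjusted p = 1). Hp, which encodes haptoglobin, was at 1025, 961 and 1048 CPM in CM and 1431, 969 and 1118 in FI1 (log2 fold change 0.21 with SE 0.54, adjusted p = 1). F13a1, a clotting factor gene of monocytes, was at 1312, 1939 and 1234 against 2451, 4006 and 1224 CPM (adjusted p = 0.965), and the groups overlapped. Csf1r, the receptor on which monocytes and macrophages depend, was at 1270.2, 1428 and 1430.0 CPM in CM and 855, 1059.7 and 1359.8 in FI1 (adjusted p = 0.465). Clec4a1 fell from 201, 289 and 375 CPM in CM to 64.5, 46.9 and 75.4 in FI1 (log2 fold change -2.21 with SE 0.35, adjusted p = 0.000305) and kept its call in each of the 6 fits without a library. In the fit to the 6 libraries alone Cd14 held and Clec4a1 did not.

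Emr1, the gene of the gating protein F4/80, was at 291, 306 and 374 CPM in CM and 231, 451 and 386 in FI1 (adjusted p = 1). The groups overlapped. Cflar (mm10 chromosome 1, 58711311 to 58758884), floxed in these mice, was at 55.4, 64.2 and 55.5 CPM in CM and 30.3, 111 and 60.5 in FI1 (adjusted p = 1). Itgax, which encodes CD11c, was at 145, 21.1 and 34.5 against 1.54, 35.1 and 52.6 CPM (adjusted p = 0.88), with wide spread in both groups.

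Of 23 pattern recognition genes tested, 5 rose in FI1, none fell and 18 were not called, against 1.23% of all genes called higher. The leading one was Cd14, the co-receptor that hands bacterial lipopolysaccharide to TLR4. Cd14 was at 288, 405 and 390.3 CPM in CM and 4083, 5954 and 7135 in FI1, 15.9-fold higher with no overlap (log2 fold change 3.99 with SE 0.28, adjusted p = 2.85e-11). In no other gene tested was the adjusted p smaller. Tlr2, the receptor for bacterial lipoproteins, was at 195, 178 and 199 CPM in CM and 1162, 1557 and 1509 in FI1 (log2 fold change 2.89 with SE 0.57, adjusted p = 0.00337). Clec4e (Mincle), which senses mycobacterial glycolipid and dead cells, was at 96.4, 208 and 200.1 against 789.8, 1315 and 1244 CPM (log2 fold change 2.73 with SE 0.62, adjusted p = 0.0115). The beta-glucan receptor gene Clec7a (Dectin-1) was at 517, 569 and 384 against 815, 1252 and 1677 CPM (log2 fold change 1.35 with SE 0.27, adjusted p = 0.00441). In these 4 genes the groups did not overlap. Cd14 and Tlr2 kept their call whichever library was left out, while Clec7a lost it without Bld_1508 (adjusted p = 0.0507) and Clec4e without Bld_1470 or Bld_1508 (adjusted p 0.0502 to 0.11). The fifth call, the formyl peptide receptor Fpr1, was at 0 in all 3 CM libraries and at 0, 5.47 and 43.2 CPM in FI1, so the groups overlapped at 0, and its call was lost without any one CM library or Ank_1392 (adjusted p 0.12 to 0.156). Tlr4 itself was at 3.59, 56.4 and 85.2 CPM in CM and 8.56, 0.576 and 5.07 in FI1 (adjusted p = 0.134). With the sex term 4 of the 5 calls held, Fpr1 being the exception (adjusted p = 0.0849), and in the fit to the 6 libraries alone 3 held, Cd14, Tlr2 and Clec4e.

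Inflammatory cytokine genes and the feedback inhibitors of NF-kB, the transcription factor that drives many of them, were a second group with calls mostly in the direction of FI1. Of 31 tested, 8 rose, 1 fell and 22 were not called, against 1.23% of all genes called higher and 0.651% lower. In 28 the log2 fold change was above 0 (median 1.67, against 0 over all genes). Il1b (mm10 chromosome 2, 129364569 to 129371164), the gene of the interleukin-1 beta precursor, was at 282, 252 and 352 CPM in CM and 1886, 3246 and 2396 in FI1, 8.5-fold higher with no overlap (log2 fold change 3.09 with SE 0.45, adjusted p = 0.000133). Il1a was at 0 counts in CM and at 4.99, 83 and 47 CPM in FI1, at least 427-fold higher (adjusted p = 0.00461). The cytokine signalling inhibitor Socs3 was at 83.7, 37.9 and 31.4 CPM in CM and 304, 306 and 231 in FI1 (log2 fold change 2.46 with SE 0.37, adjusted p = 0.000172). Ier3, a stress-response gene induced through NF-kB, was seen in 1 CM library only, with 0, 3.73 and 0 CPM in CM and 365, 684 and 467 in FI1 (adjusted p = 0.00193). Nfkbia, which encodes the NF-kB inhibitor I-kappa-B alpha, was at 365, 567 and 491 CPM in CM and 664, 756 and 1813 in FI1 (log2 fold change 1.18 with SE 0.25, adjusted p = 0.00751), and its relative Nfkbie was at 1.1, 11.5 and 20.0 against 202, 92.7 and 174 CPM (log2 fold change 3.85 with SE 0.80, adjusted p = 0.00602). Ank_1392 was the highest library for Nfkbia.

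The cytokine Osm was at 21.5, 78.7 and 67.4 CPM in CM and 1252, 593 and 283 in FI1 (log2 fold change 3.67 with SE 0.93, adjusted p = 0.0291), and Tnfaip2 at 99.4, 169.6 and 106 against 269, 508 and 412 CPM (log2 fold change 1.67 with SE 0.42, adjusted p = 0.0288). Tgfb1, the gene of transforming growth factor beta 1, was the one that fell, from 164, 191 and 298 CPM in CM to 90.4, 57.6 and 56.4 in FI1 (log2 fold change -1.67 with SE 0.39, adjusted p = 0.0175). Il1b, Il1a, Socs3, Ier3 and Nfkbie kept their calls in every fit that left out a library. Nfkbia lost its call without Bld_1470 or Ank_1392 (adjusted p 0.0857 to 0.226), Osm without any one CM library or Ank_1167 (adjusted p 0.0823 to 0.18), Tnfaip2 without Bld_1470, Bld_1508, Ank_1194 or Ank_1392 (adjusted p 0.0683 to 0.17) and Tgfb1 without Bld_1508, Ank_1194 or Ank_1392 (adjusted p 0.0897 to 0.142). Tnf was at 31.2, 0.552 and 0 CPM in CM and 19.5, 55.9 and 26.1 in FI1 and Il6 at 0 in all 3 against 0, 42.6 and 59.8, and neither was called (adjusted p = 0.709 and 0.104). With sex in the fit 6 of the 9 calls held, and Tnfaip2, Osm and Tgfb1 had adjusted p-values of 0.0926, 0.117 and 0.128. Il1b was the 1 call of the 9 that held in the fit to the 6 libraries alone.

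Chemokine genes were called in the same direction. Of 22 tested, 7 rose and none fell, against 1.23% of all genes called higher. The median log2 fold change was 3.97 against 0 over all genes. The neutrophil attractants Cxcl1, Cxcl2 and Cxcl3, which lie together on chromosome 5, all rose. Cxcl1 was at 0 in the CM libraries and at 13.2, 45.5 and 945 CPM in FI1, at least 3174-fold higher (adjusted p = 3.76e-05). Cxcl2 was at 7.88, 0 and 23.8 CPM in CM and 385, 354 and 1110.2 in FI1 (log2 fold change 5.85 with SE 1.03, adjusted p = 0.00142). Cxcl3 was at 0 in CM and at 2.14, 0 and 64.8 CPM in FI1, so 1 FI1 library also had none (adjusted p = 0.049). In each of the 3 genes Ank_1392 was the highest library. Ccl2, the ligand of CCR2, was at 22.3, 26.4 and 14.5 CPM in CM and 296, 535 and 520.3 in FI1, 21.4-fold higher with no overlap (log2 fold change 4.42 with SE 0.84, adjusted p = 0.00262). Its neighbour Ccl7, also a CCR2 ligand, was at 0 in CM and at 7.01, 600.0 and 84.4 CPM in FI1 (at least 2185-fold, adjusted p = 3.76e-05), with most of it in Ank_1194. Ccl8, a monocyte attractant, was at 0 in CM and at 0, 215 and 49 CPM in FI1 (adjusted p = 0.0123), and the eosinophil attractant Ccl24 at 0 against 0, 116 and 0 CPM (adjusted p = 0.0431). Both were highest in Ank_1194. Cxcl1, Cxcl2, Ccl2 and Ccl7 kept their call in every fit that left out a library. Cxcl3 lost its call without any one CM library or Ank_1392 (adjusted p 0.154 to 0.278), Ccl8 without any one CM library (adjusted p 0.062 to 0.0764) and Ccl24 without any one CM library or Ank_1194 (adjusted p 0.145 to 1). When sex was also fitted, 5 of the 7 calls held (adjusted p = 0.0903 for Cxcl3 and 0.122 for Ccl24). Of the 7, Ccl2 held in the fit to the 6 libraries alone.

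The promoters of the 3 Cxcl genes are shown with the longest run of bases that all 3 share, an NF-kB-type motif. RefSeq windows (GRCm38.p6, the assembly also called mm10) from before each gene's start are printed 5′ to 3′ on the gene's strand, with the shared run GGGAATTTCCC in capitals.
Cxcl1 (chr5:90891114-90891214, plus strand): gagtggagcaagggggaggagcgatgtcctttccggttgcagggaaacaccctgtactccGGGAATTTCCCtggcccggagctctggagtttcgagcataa
Cxcl2 (chr5:90903742-90903842, plus strand): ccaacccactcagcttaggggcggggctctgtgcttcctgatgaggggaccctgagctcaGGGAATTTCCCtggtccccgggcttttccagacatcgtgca
Cxcl3 (chr5:90785968-90786068, plus strand): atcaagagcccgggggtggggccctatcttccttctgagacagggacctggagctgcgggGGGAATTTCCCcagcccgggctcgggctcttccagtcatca
The motif began 71, 97 and 73 bases before the start of Cxcl1, Cxcl2 and Cxcl3. Among 32851 promoters of 250 bases before the gene start, 14 (0.0426%) held it. The motif was taken from the Cxcl1, Cxcl2 and Cxcl3 promoters, so their matches were fixed in advance. They were the only matches among the 16 promoters found for the 22 listed chemokines. The motif was searched for on both strands and was the only one searched for in these windows. A match is a description of the sequence and shows no binding in these cells.

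The antigen-presentation genes of MHC class II were called in the opposite direction. Of 13 tested, 7 fell and none rose, against 0.651% of all genes called lower. None had a log2 fold change above 0 (median -2.51, or -2.35 with genes at 0 in a group set to their bound). All 3 FI1 libraries were below all 3 CM libraries in 10 of the 13, against 7.97% of all genes tested. Ciita (mm10 chromosome 16, 10480014 to 10531064), the master regulator that switches on class II genes, was at 60.7, 126 and 37.1 CPM in CM and at 0 in every FI1 library, at least 429-fold lower (adjusted p = 0.00299). Cd74, the invariant chain that chaperones class II molecules, was at 6591, 6899 and 5314 CPM in CM and 407, 657 and 1918 in FI1, 6.31-fold lower (log2 fold change -2.66 with SE 0.41, adjusted p = 0.000234). H2-Ab1, a chain of the class II molecule I-A, was at 1838, 1811 and 1337 CPM in CM and 91, 57.9 and 729 in FI1 (log2 fold change -2.50 with SE 0.59, adjusted p = 0.0194), and its partner H2-Aa was at 1128, 1164 and 837 against 53.8, 117 and 468 CPM without a call (adjusted p = 0.126). Ank_1392 was the FI1 library nearest to CM for both genes. H2-Eb1, a chain of I-E, was at 432, 549 and 573 CPM in CM and 48.8, 51.3 and 205 in FI1 (log2 fold change -2.35 with SE 0.53, adjusted p = 0.0133).

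H2-DMb1, which encodes a chain of the peptide-loading molecule H2-M, was at 238, 313 and 258 CPM in CM and 74.5, 36 and 119 in FI1 (log2 fold change -1.82 with SE 0.38, adjusted p = 0.00577). Its near copy H2-DMb2 was at 34.5, 14.8 and 23.3 CPM in CM and 0.238, 0 and 0 in FI1, where it had at most 3 counts in all, 216-fold lower with an exact 95% counting interval of 59.5 to 1784 (adjusted p = 0.00731). Reads that fit both copies can be split between them, so their separate levels are uncertain. Ctss, the protease that degrades the invariant chain, was at 3280.3, 3841 and 3479 CPM in CM and 1816, 1673 and 3012 in FI1 (log2 fold change -0.71 with SE 0.18, adjusted p = 0.0278). Cd74 and Ciita kept their calls in every fit that left out a library. H2-DMb1 lost its call without Ank_1194 (adjusted p = 0.0588), H2-DMb2 without Ank_1194 (adjusted p = 0.0504), H2-Eb1 without Ank_1167 or Ank_1194 (adjusted p 0.0723 to 0.0993), H2-Ab1 without Bld_1470, Bld_1506, Ank_1167 or Ank_1194 (adjusted p 0.0595 to 0.084) and Ctss without any one CM library, Ank_1167 or Ank_1194 (adjusted p 0.0561 to 0.208). With the sex term 5 of the 7 held, and H2-Eb1 and H2-Ab1 had adjusted p-values of 0.0789 and 0.0737. In the fit to the 6 libraries alone none of the 7 was called, with an adjusted p of 0.134 for Cd74, 0.104 for Ciita and 0.378 for H2-Ab1. B cells also express class II genes, and the summed B and plasma cell markers were 1074 to 1164 CPM in CM and 279.8 to 439.8 in FI1. A single gene, Xbp1, which monocytes express too, made up most of each of these sums (values below). The part of B cells in the class II difference was not tested.

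Class II promoters share a short upstream module, and 4 that hold a core part of it are shown. Of these genes H2-Eb1, H2-DMb1 and H2-DMb2 were called lower and H2-Aa was not called. The windows come from RefSeq (GRCm38.p6), run 5′ to 3′ on each gene's strand, and carry the heptamer TGATTGG in capitals, the core of the Y box read by the NF-Y complex.
H2-Aa (chr17:34287837-34287933, minus strand): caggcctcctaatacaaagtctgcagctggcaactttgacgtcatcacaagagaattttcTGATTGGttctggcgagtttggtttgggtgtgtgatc
H2-Eb1 (chr17:34305746-34305842, plus strand): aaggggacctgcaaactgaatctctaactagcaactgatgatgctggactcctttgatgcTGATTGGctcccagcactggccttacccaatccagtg
H2-DMb1 (chr17:34153068-34153164, plus strand): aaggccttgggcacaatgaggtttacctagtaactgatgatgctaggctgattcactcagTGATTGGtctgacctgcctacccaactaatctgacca
H2-DMb2 (chr17:34145097-34145193, plus strand): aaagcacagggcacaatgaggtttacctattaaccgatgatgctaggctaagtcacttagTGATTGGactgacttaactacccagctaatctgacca
The heptamer began 50 bases before the start of H2-Aa, 61 before H2-Eb1, 63 before H2-DMb1 and 92 before H2-DMb2, on the gene's own strand in each. Searched on both strands of the 250 bases before the start, it was found in 2375 of 32851 promoters (7.23%) and in 7 of the 11 promoters the table holds for 10 of the 13 listed class II genes. The genes that held it also included H2-Eb2, H2-Oa and H2-Ob, which were not called. Cd74, Ctss, H2-Ab1 and Ciita, which were called, were not among them, and no promoter was found for H2-Ab1 and Ciita. Windows were printed only where the heptamer was found, so their matches were fixed in advance. It was the only motif searched for in these windows, and a match shows no binding in these cells.

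**Figure D2:**
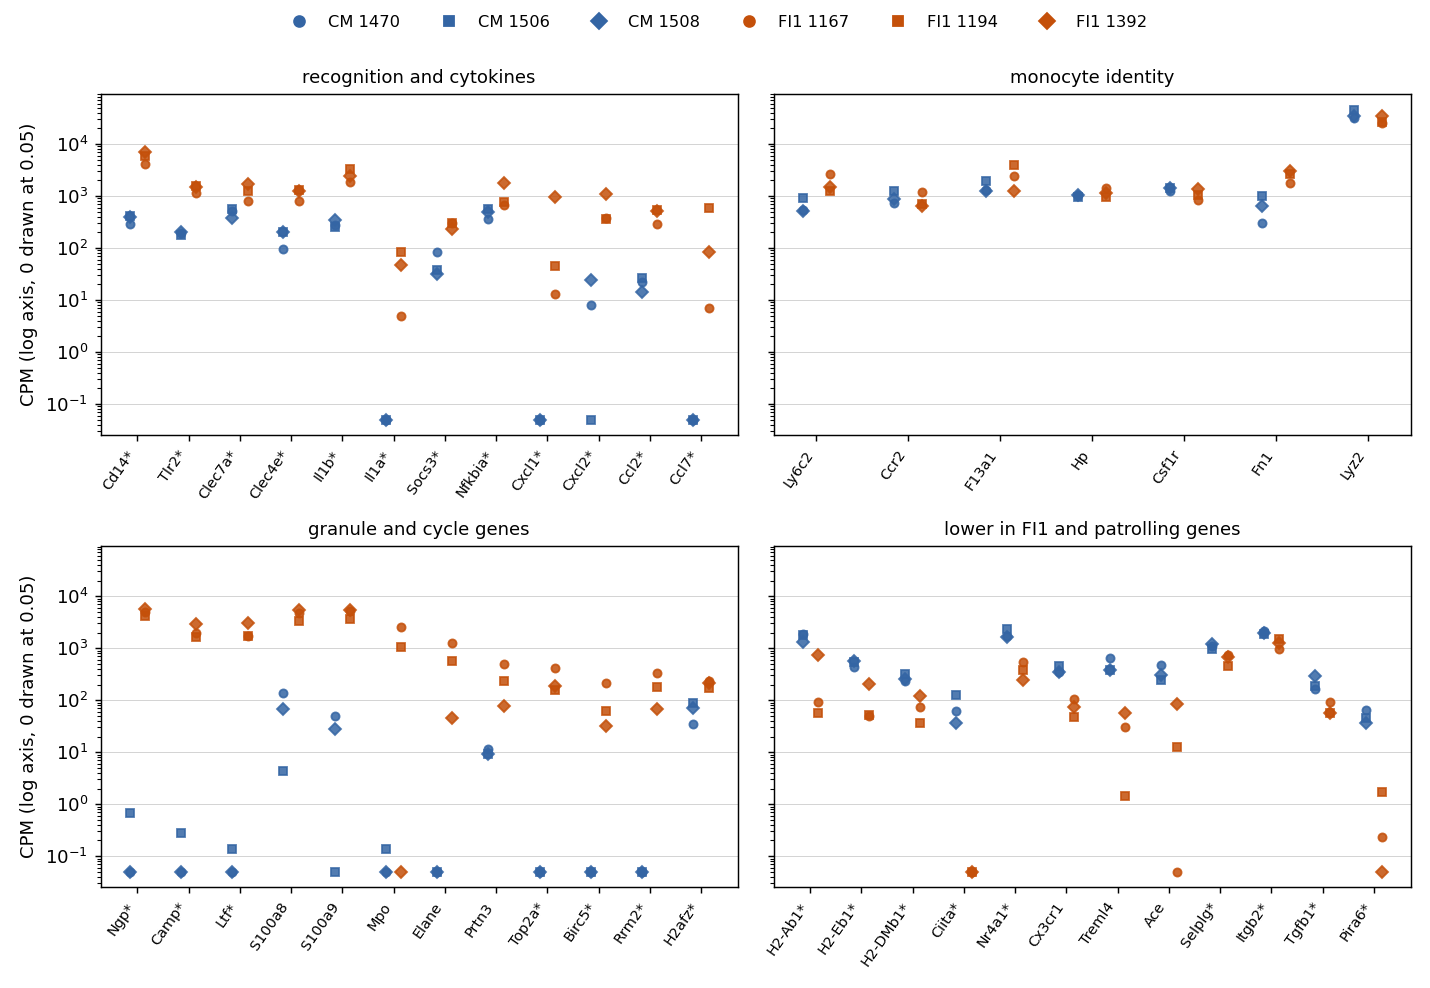
CPM (log axis, 0 drawn at 0.05) of genes by role in the 3 CM libraries (blue) and the 3 FI1 libraries (orange), with a symbol for each mouse and an asterisk on called genes. In the monocyte identity panel no gene is called and Ly6c2 is higher in every FI1 library. In the other panels Cd14, Il1b and Ccl2 lie higher in every FI1 library, and Ciita is drawn at the floor in all 3 FI1 libraries.

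Genes of non-classical monocytes, the Ly6C-low cells that patrol the vessel wall, were lower in FI1 in most libraries, mostly without a call. Of 16 tested, 1 fell and none rose, against 0.651% of all genes called lower. The one that fell was Nr4a1 (mm10 chromosome 15, 101253902 to 101274795), the nuclear receptor on which these cells depend. It was at 1741, 2305 and 1607 CPM in CM and 536, 374 and 248 in FI1, 4.88-fold lower with no overlap (log2 fold change -2.29 with SE 0.35, adjusted p = 0.000195), and it kept its call whichever library was left out but not in the fit to the 6 libraries alone (adjusted p = 0.0535). In 10 of the 16 genes all FI1 libraries lay below all CM libraries, against 7.97% of all genes tested, with a median log2 fold change of -2.03 over the 16. Treml4 was at 657, 377 and 379 CPM in CM and 30.4, 1.44 and 57.1 in FI1 and Ace, the angiotensin-converting enzyme gene, at 472, 246 and 299 against 0, 12.7 and 85.5 CPM. Neither was called (adjusted p = 0.331 and 0.412). The fractalkine receptor gene Cx3cr1 was at 344, 447 and 351 against 103, 47.8 and 73.1 CPM (adjusted p = 0.416), and the adhesion gene Itgal at 851, 419 and 703 against 201, 71.1 and 84.4 CPM (adjusted p = 0.36). These genes were high in the control NCM libraries of the series, where Nr4a1 averaged 3716 CPM (2688 to 5239), Treml4 1102 CPM (970.0 to 1246) and Ace 1080.5 CPM (890.4 to 1284). Ly6c2 was at 0 in all 3 control NCM libraries. In the CM libraries of HUPO mice, Nr4a1 was at 355, 521 and 396 CPM, Treml4 at 62.5, 167 and 122 and Ace at 30.3, 0 and 25, each below all 3 control CM libraries. The part of non-classical transcripts in the control CM libraries in these differences was not tested.

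Among the largest differences were genes of neutrophil granules. Ngp (mm10 chromosome 9, 110419808 to 110423012), which encodes neutrophilic granule protein, was at 0, 0.69 and 0 CPM in CM and 4897, 4140.2 and 5659.6 in FI1 (log2 fold change 14.55 with SE 3.05, adjusted p = 0.0113). Camp, the gene of the antimicrobial peptide cathelicidin, was at 0, 0.276 and 0 CPM in CM and 1968, 1614 and 2954 in FI1, a ratio of 31317 with an exact 95% counting interval of 8669 to 258605 (adjusted p = 0.00914). Ltf, the gene of lactoferrin, was at 0, 0.138 and 0 against 1735, 1738 and 2993 CPM, a ratio of 60450.4 with an interval of 10849 to 2387730.0 (adjusted p = 0.0218). All 3 FI1 libraries carried these transcripts, and the CM libraries had none or a few counts. Il1r2, the decoy receptor for interleukin-1, was at 3.89, 30.8 and 5.46 CPM in CM and 573, 517 and 506 in FI1 (log2 fold change 5.32 with SE 1.07, adjusted p = 0.00425) and kept its call whichever library was left out.

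Of 21 neutrophil genes tested, these 4 rose, none fell and 17 were not called, against 1.23% of all genes called higher. In 14 of the 21 all FI1 libraries lay above all CM libraries, against 6.93% of all genes tested. The calprotectin genes missed the threshold, S100a8 with 137, 4.28 and 68.1 CPM in CM against 4777, 3361 and 5356 in FI1 (adjusted p = 0.0845) and S100a9 with 49, 0 and 28.4 against 5121, 3579 and 5422 CPM (adjusted p = 0.0608). Lcn2 (lipocalin 2) was at 0, 0 and 30.1 CPM in CM and 743, 751 and 1146 in FI1 (adjusted p = 0.225). Cxcr2, the receptor for Cxcl1 and Cxcl2, was at 0, 0 and 0.179 CPM in CM and 16.3, 18.1 and 26.3 in FI1, and Mmp9 was seen in Ank_1167 only, at 105, 0 and 0 CPM over the 3 libraries. Csf3r, the receptor for granulocyte colony-stimulating factor, was at 214, 184 and 84.2 CPM in CM and 173, 143 and 48.1 in FI1 (adjusted p = 1). Summed over the marker list, neutrophil genes reached 18173 to 27011 CPM in FI1 and 1181 to 1478 in CM, with 17 to 19 of its 21 genes detected in an FI1 library and 11 to 12 in a CM library. The part of neutrophils or their precursors in these differences was not tested. Calls for Ngp, Camp and Ltf were lost without any 1 of the 3 CM libraries, with adjusted p up to 0.0907 for Ngp, 0.0771 for Camp and 0.131 for Ltf. With sex in the fit Ngp kept its call (adjusted p = 0.0471) and Camp and Ltf did not (0.0679 and 0.102), while all 3 held in the fit to the 6 libraries alone. In bulk libraries more cells of a type and more RNA per cell cannot be told apart.

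Genes of the primary granules made by marrow progenitors were also present in FI1, unevenly between mice. Mpo (myeloperoxidase) was at 0, 0.138 and 0 CPM in CM and 2585, 1058 and 0 in FI1, and Elane (neutrophil elastase) at 0 in all 3 against 1243, 573 and 44.5 CPM. Prtn3 (proteinase 3) was at 11.5, 9.25 and 9.03 against 498, 236 and 75.7 CPM, and Ms4a3, a gene of granulocyte and monocyte progenitors, at 0 in all 3 against 143, 136 and 27.1 CPM. The order of FI1 libraries was the same in all 4, highest in Ank_1167 and lowest in Ank_1392. None was called (adjusted p = 0.115, 0.0541, 0.311 and 0.102). Of 16 marrow progenitor genes tested, 1 rose (Hmgn2, a nucleosome-binding protein gene, 11.7, 14.8 and 28.8 against 206, 125 and 136 CPM, adjusted p = 0.0113) and 1 fell (Ctla2a), against 1.23% of all genes called higher and 0.651% lower. Hmgn2 lost its call without Bld_1470 or Bld_1506 (adjusted p 0.0823 to 0.104) and with the sex term (adjusted p = 0.0538).

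Cell cycle genes were also called toward FI1. Of 32 tested, 5 rose, none fell and 27 were not called, against 1.23% of all genes called higher. In 29 the log2 fold change was above 0 (median 3.49 against 0 over all genes), and in 18 all FI1 libraries lay above all CM libraries, against 6.93% of all genes. The list summed to 5202, 2928 and 2382 CPM in FI1 and 1047, 968 and 1096 in CM. Marrow progenitor markers summed to 5413, 2708 and 745 CPM in FI1, in the same order of libraries, and 345, 279 and 180.0 in CM, and their part in the cell cycle difference was not tested. Top2a, the topoisomerase of dividing cells, was at 0 in CM and at 416, 158 and 191 CPM in FI1, at least 2418-fold higher (adjusted p = 0.0113). Birc5 (survivin) was at 0 against 214, 60.8 and 31.4 CPM (at least 967-fold, adjusted p = 0.024), and Rrm2, a subunit of ribonucleotide reductase, at 0 against 331, 182 and 67.3 CPM (at least 1835-fold, adjusted p = 0.0282). Ank_1167 was highest for these 3 genes. The histone variant gene H2afz was at 34.5, 89.1 and 70.7 CPM in CM and 232, 174 and 217 in FI1 (log2 fold change 1.68 with SE 0.36, adjusted p = 0.00816), and Hmgb2 at 64.6, 63.5 and 50.7 against 308, 162 and 174 CPM (log2 fold change 1.85 with SE 0.47, adjusted p = 0.0315). Mki67, the gene of the proliferation marker Ki-67, was at 0, 17.9 and 6.89 against 379, 225 and 108 CPM, with no overlap and no call (adjusted p = 0.31). Top2a lost its call without any one CM library (adjusted p 0.062 to 0.074), Birc5 without any one CM library (adjusted p 0.0969 to 0.121), Rrm2 without any one CM library (adjusted p 0.104 to 0.135), H2afz without Bld_1470 (adjusted p = 0.1) and Hmgb2 without any one CM library or Ank_1167 (adjusted p 0.104 to 0.163). When sex was also fitted, Top2a and Rrm2 held, and Birc5, H2afz and Hmgb2 had adjusted p-values of 0.0679, 0.0544 and 0.159. Top2a and Rrm2 also held in the fit to the 6 libraries alone.

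Of 28 genes for growth factors and matrix remodelling, 8 rose in FI1, 1 fell (Tgfb1, above) and 19 were not called, against 1.23% of all genes called higher and 0.651% lower. Plaur, the urokinase receptor gene, was at 439.9, 400.0 and 369 CPM in CM and 1517, 1751 and 1233 in FI1 (log2 fold change 1.90 with SE 0.29, adjusted p = 0.00023). Several others had no count in any control CM library. Adam8, a membrane protease gene, was at 0 in CM and 277, 369.5 and 629 CPM in FI1 (at least 4029.7-fold, adjusted p = 0.00335), and Spp1 (osteopontin) at 0 against 226, 317 and 115 CPM (at least 2077-fold, adjusted p = 0.00116). Timp1, an inhibitor of matrix metalloproteinases whose gene lies on the X chromosome, was at 0 against 6.65, 27.1 and 85.1 CPM (adjusted p = 0.000125). Mmp14, the membrane collagenase gene, was at 0 against 17.8, 31.4 and 18 CPM (adjusted p = 0.000437). Igf1 was at 0 in CM and 9.27, 9.79 and 23.1 CPM in FI1 (adjusted p = 0.00807). All of these kept their call whichever library was left out. Hbegf, a ligand of the epidermal growth factor receptor, was at 0 in CM and at 1.9, 269 and 204 CPM in FI1 (adjusted p = 0.00954), and Areg, another ligand, at 0 against 26.1, 0 and 40.0 CPM (adjusted p = 0.049). Hbegf lost its call without any one CM library (adjusted p 0.0533 to 0.0603) and Areg without any one CM library, Ank_1167 or Ank_1392 (adjusted p 0.0614 to 0.192). With the sex term 7 of the 9 held, Areg and Tgfb1 being the exceptions (adjusted p = 0.107 and 0.128), and in the fit to the 6 libraries alone 3 held, Plaur, Adam8 and Spp1. Fibroblast markers summed to 836, 9267 and 10121 CPM in FI1 and 59.9, 164 and 163 in CM. A single gene, Prg4, made up most of the sums in Ank_1194 and Ank_1392. Timp1 and Hbegf were higher in Ank_1194 and Ank_1392 than in Ank_1167. The part of fibroblasts in these differences was not tested.

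Of 14 iron and heme genes tested, 3 rose and none fell, against 1.23% of all genes called higher. Fth1, the ferritin heavy chain gene, was at 2629.8, 3536 and 2913 CPM in CM and 5409, 8081 and 9538 in FI1 (log2 fold change 1.34 with SE 0.20, adjusted p = 0.000133), and its light chain partner Ftl1 at 2005, 2159 and 2355 against 2895, 3862 and 4149 CPM (log2 fold change 0.74 with SE 0.19, adjusted p = 0.0315). Hmox1, the heme-degrading enzyme, was at 169, 169 and 211 CPM in CM and 334, 961 and 1134 in FI1 (log2 fold change 2.15 with SE 0.52, adjusted p = 0.0229). In these 3 genes the groups did not overlap. Ferritin genes have processed copies in the genome that can share reads with them, so their levels are uncertain. Nfe2l2, the gene of the oxidative stress factor NRF2, was at 109.9, 173 and 202 CPM in CM and 662, 676 and 639 in FI1, 4.08-fold higher with a narrow range in FI1 (log2 fold change 2.03 with SE 0.29, adjusted p = 0.000125). Fth1 and Nfe2l2 kept their calls whichever library was left out. Ftl1 lost its call without any one CM library, Ank_1194 or Ank_1392 (adjusted p 0.072 to 0.174) and with the sex term (adjusted p = 0.22), and Hmox1 lost its call without any one CM library, Ank_1194 or Ank_1392 (adjusted p 0.0723 to 0.119). None of the 3 held in the fit to the 6 libraries alone, whereas Nfe2l2 did.

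Among 31 myeloid transcription factor genes tested, 3 rose and 3 fell, against 1.23% of all genes called higher and 0.651% lower. Nfe2l2 and Tfec were among those that rose, and Nr4a1, Sfpi1 and Id2 were those that fell. Sfpi1, which encodes PU.1, the factor on which myeloid cells depend, was at 590.0, 562 and 787 CPM in CM and 332, 178 and 251 in FI1 (log2 fold change -1.35 with SE 0.26, adjusted p = 0.0029). Id2, an inhibitor of helix-loop-helix factors, was at 815, 805 and 626 against 194, 310.2 and 383 CPM (log2 fold change -1.34 with SE 0.28, adjusted p = 0.00541). Tfec was at 0 in CM and at 19.4, 0 and 35.9 CPM in FI1 (adjusted p = 0.0323), and it alone of the 6 lost its call on leaving out a library, without any one CM library or Ank_1392 (adjusted p 0.0658 to 0.156), and with the sex term (adjusted p = 0.0554). Of the 6, Nfe2l2 held in the fit to the 6 libraries alone.

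Adhesion and trafficking genes split, with 2 of 26 higher and 3 lower, against 1.23% and 0.651% of all genes. Cxcr4, the marrow retention receptor, was at 27.5, 28 and 35.3 CPM in CM and 145, 87.3 and 175 in FI1 (log2 fold change 2.16 with SE 0.52, adjusted p = 0.0192), and the chemokine receptor gene Ccr1 at 43.7, 64.3 and 0.894 against 867, 866 and 358 CPM (log2 fold change 4.27 with SE 1.06, adjusted p = 0.0282). Selplg, the gene of the selectin ligand PSGL-1, was at 1087, 981 and 1208 CPM in CM and 740.4, 455 and 669 in FI1 (log2 fold change -0.81 with SE 0.19, adjusted p = 0.0192). The integrin subunit genes Itgb1 and Itgb2 fell too. Itgb1 was at 628, 619 and 574 CPM in CM against 243, 202 and 363 in FI1 (adjusted p = 0.0312) and Itgb2 at 2113, 1904 and 1931 against 968, 1491 and 1256 CPM (adjusted p = 0.0384). None overlapped between the groups, but none of the 5 calls held in every fit that left out a library. Cxcr4 was lost without any one CM library or Ank_1392 (adjusted p 0.0641 to 0.115), Ccr1 without any one CM library or Ank_1194 (adjusted p 0.062 to 0.125), Selplg without Bld_1470, Bld_1508 or Ank_1194 (adjusted p 0.0642 to 0.165), Itgb1 without any one CM library, Ank_1167 or Ank_1194 (adjusted p 0.0714 to 0.183) and Itgb2 without any one CM library, Ank_1167 or Ank_1392 (adjusted p 0.089 to 0.195). With sex in the fit Cxcr4 alone held (adjusted p = 0.0441), and none of the 5 held in the fit to the 6 libraries alone.

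Of 30 death receptor and apoptosis genes 2 of opposite function rose and none fell, against 1.23% of all genes called higher. Mcl1, which protects cells from death, was at 1019.7, 1137 and 765 CPM in CM and 1467, 2342 and 1699 in FI1 (log2 fold change 0.91 with SE 0.21, adjusted p = 0.0128). Bcl2l11 (Bim), which promotes death, was at 28.7, 34.8 and 28.8 against 439, 328 and 187 CPM (log2 fold change 3.37 with SE 0.89, adjusted p = 0.0378). Mcl1 lost its call without Bld_1508 or Ank_1194 (adjusted p 0.127 to 0.135) and Bcl2l11 without any one CM library, Ank_1167 or Ank_1194 (adjusted p 0.0828 to 0.17), and with the sex term Mcl1 held (adjusted p = 0.00485) and Bcl2l11 did not (0.0967). The smallest adjusted p-values after that of Cd14 belonged to genes outside the lists, Rgs1, a regulator of G protein signalling, and Fosl1, a subunit of the AP-1 factor. Rgs1 was at 21.3, 27.3 and 29.9 CPM in CM and 388, 218 and 154 in FI1 (adjusted p = 4.09e-06), and Fosl1 at 0 in CM against 67.4, 42.6 and 42.5 CPM (at least 482-fold, adjusted p = 2.83e-05). Both kept their calls whichever library was left out. Among 25 immediate early genes, Fosl2 and Nr4a2 rose and Nr4a1 fell, against 1.23% of all genes called higher and 0.651% lower. Nr4a2, a relative of Nr4a1, was at 1.3, 20.1 and 30.2 CPM in CM and 625, 814 and 223 in FI1 (log2 fold change 5.01 with SE 1.27, adjusted p = 0.0297), opposite in direction to Nr4a1. Fosl2, another AP-1 subunit, was at 38.5, 58.2 and 117 against 290.4, 271 and 443 CPM (log2 fold change 2.23 with SE 0.54, adjusted p = 0.023). Nr4a2 lost its call without any one CM library or Ank_1194 (adjusted p 0.0758 to 0.156) and Fosl2 without Bld_1470, Bld_1506 or Ank_1392 (adjusted p 0.0964 to 0.17), and neither held with the sex term (adjusted p = 0.0849 and 0.0789). In the fit to the 6 libraries alone Rgs1 and Bcl2l11 held, and Fosl1, Mcl1, Nr4a2 and Fosl2 did not. Fos, itself a subunit of AP-1, was at 1398, 1583 and 1573 CPM in CM and 2478, 2024 and 1354 in FI1 (adjusted p = 0.691), and Dusp1, a phosphatase gene induced in the same response, was at 2250.3, 1975 and 2084 CPM in CM and 2587, 2285 and 1624 in FI1 (adjusted p = 1).

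Of 29 resident macrophage genes tested, 10 rose, 1 fell and 18 were not called, against 1.23% of all genes called higher and 0.651% lower. Many of those that rose were highest in Ank_1194. The list summed to 2538, 11111 and 5886 CPM in the FI1 libraries and 3251, 3978 and 3148 in CM. Lyve1, a hyaluronan receptor of tissue macrophages, was at 0 in CM and at 40.5, 449.6 and 0 CPM in FI1 (adjusted p = 0.0227). The complement gene C1qa was at 0 against 28.2, 384 and 0 CPM (adjusted p = 0.00862), and the folate receptor gene Folr2 at 0 against 0.356, 145 and 21 CPM (adjusted p = 0.00172). The transporter gene Slco2b1 was at 0 in CM and 0, 53.9 and 0 CPM in FI1 (adjusted p = 0.0323), and Gas6, a ligand of receptors for dying cells, at 0 against 2.61, 146 and 0 CPM (adjusted p = 0.0227). The scavenger receptor gene Stab1 was at 0, 0.552 and 2.33 CPM in CM and 33.4, 84.4 and 0 in FI1 (adjusted p = 0.0382), and the secreted protein gene Olfml3 at 0 against 10.5, 26.8 and 0 CPM (adjusted p = 0.0348). Ank_1392 had no count of Lyve1, C1qa, Slco2b1, Gas6, Stab1 or Olfml3. Timd4, a receptor of long-lived resident macrophages, was at 0, 24.8 and 0 CPM in FI1 and 0 in CM, and Vsig4, a complement receptor gene of joint-lining macrophages, at 14.9, 141 and 0 CPM and 0, without a call (adjusted p = 0.254 and 0.172). In control FH1, an F4/80-high ankle population, Lyve1 averaged 3659 CPM (2836 to 4179) and C1qa 3721 CPM (3295 to 4367). Igf1 and Folr2 kept their call without each library, whereas Lyve1 lost it without any one CM library or Ank_1194 (adjusted p 0.0892 to 0.113), C1qa without any one CM library or Ank_1194 (adjusted p 0.0517 to 0.0661), Gas6 without any one CM library or Ank_1194 (adjusted p 0.089 to 0.116), Slco2b1 without any one CM library or Ank_1194 (adjusted p 0.104 to 1), Olfml3 without any one CM library or Ank_1194 (adjusted p 0.112 to 0.16) and Stab1 without Bld_1470, Bld_1506 or Ank_1194 (adjusted p 0.165 to 0.178). Aif1, the gene of the calcium-binding protein IBA1, was lower, at 244, 161 and 218 CPM in CM and 68.7, 98.2 and 156 in FI1 (log2 fold change -0.95 with SE 0.25, adjusted p = 0.0384), and lost its call without Bld_1470, Bld_1508, Ank_1167 or Ank_1194 (adjusted p 0.132 to 0.212). When sex was also fitted, 5 of the 11 calls held, Folr2, Igf1, C1qa and Sparc among them, and in the fit to the 6 libraries alone Sparc was the 1 that held. Sparc is also counted in the fibroblast list, and its values are given there. The part of resident macrophages in Ank_1194 in these calls was not tested.

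**Figure D3:**
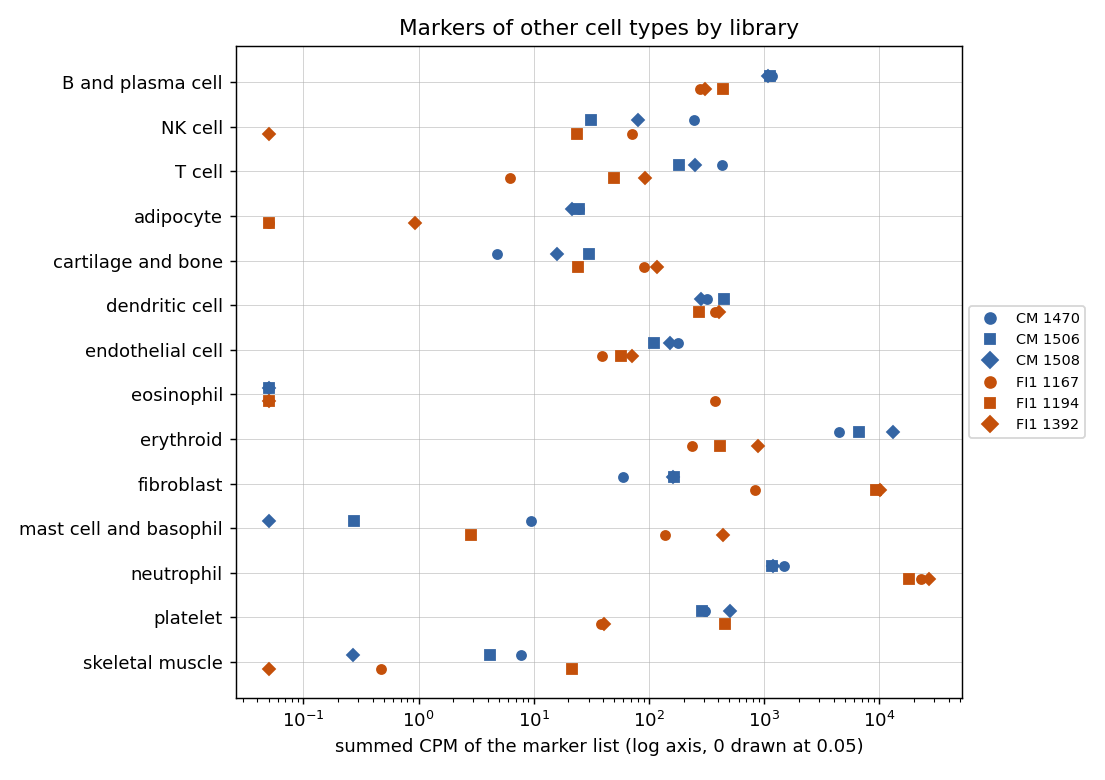
Summed CPM (log axis, 0 drawn at 0.05) of each list of markers of other cell types in the 3 CM libraries (blue) and the 3 FI1 libraries (orange). Neutrophil sums are 18173 to 27011 in the FI1 libraries, and erythroid sums are higher in the 3 CM libraries. Fibroblast sums are highest in Ank_1194 and Ank_1392, where Prg4 makes up most of them.

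Among fibroblast transcripts, Prg4 stood out in Ank_1194 and Ank_1392, where it made up most of the summed fibroblast markers. Prg4 (lubricin), the secreted lubricant of the joint lining, was at 1.3, 8.28 and 6.53 CPM in CM and 5.23, 8205 and 8558 in FI1 (log2 fold change 10.03 with SE 2.69, adjusted p = 0.0487), so Ank_1167 was at the level of blood. Dcn (decorin) was at 0 in CM and 457, 686 and 741 CPM in FI1 (at least 5954-fold, adjusted p = 0.0347), and Sparc at 0 against 73.8, 113 and 194 CPM (adjusted p = 0.0113). These were the 3 calls among the 20 fibroblast genes tested, against 1.23% of all genes called higher, and none fell. Sparc is also counted in the resident macrophage list. The list summed to 836, 9267 and 10121 CPM in FI1 and 59.9, 164 and 163 in CM, and 9 to 16 of its 20 genes had a count in an FI1 library against 3 to 5 in a CM library. In the control FH1 macrophage libraries it summed to 3073 to 4642 CPM with 6 to 7 genes detected, so the sum is not particular to fibroblasts. The collagen gene Col1a1 was at 4.87, 0 and 0 CPM in FI1 and at 0 in CM. Prg4 lost its call without any one CM library, Ank_1194 or Ank_1392 (adjusted p 0.0835 to 0.231), Dcn without any one CM library, Ank_1194 or Ank_1392 (adjusted p 0.0509 to 0.16) and Sparc without any one CM library (adjusted p 0.0601 to 0.0709), and Prg4 had a log2 fold change of -0.02 without Ank_1194 and Ank_1392 together. With the sex term Sparc alone held (adjusted p = 0.0345), and in the fit to the 6 libraries alone Sparc and Dcn held. With both libraries left out, 83 genes were called and 68 of the 234 were among them.

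Eosinophil genes appeared in Ank_1167 alone. Prg2, the eosinophil major basic protein gene, was at 269.7, 0 and 0 CPM in FI1 and Epx (eosinophil peroxidase) at 47.8, 0 and 0 CPM, and both were at 0 in every CM library. Neither was called (adjusted p = 0.125 and 0.336). The summed mast cell and basophil markers were 138, 2.88 and 441 CPM in FI1 and 9.38, 0.276 and 0 in CM, and a single gene of the list was detected in each FI1 library. T cell markers summed to 6.18 to 93.2 CPM in FI1 and 181 to 434 in CM. Summed NK cell markers were 0 to 71.3 against 31.5 to 246 CPM, and dendritic cell markers 270.2 to 403 against 284 to 447 CPM. Endothelial markers summed to 38.9 to 72 against 111 to 180.3 CPM, cartilage and bone markers to 24.2 to 118 against 4.79 to 29.9, skeletal muscle to 0 to 21.6 against 0.268 to 7.68, and adipocyte to 0 to 0.94 against 21.4 to 24.9.

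Markers of other blood cells were higher in the CM libraries, without a call for erythroid or platelet genes. Erythroid markers summed to 4447 to 13124 CPM in CM and 239 to 892 in FI1. The globin gene listed as Beta-s was at 4285, 6280.5 and 12481 CPM in CM and 234, 387 and 839.8 in FI1, with no overlap and no call (adjusted p = 0.293). In 8 of 10 platelet genes all FI1 libraries were below all CM libraries, against 7.97% of all genes tested, among them Ppbp, a platelet chemokine, at 116, 56.9 and 102 CPM in CM and 0 in FI1 (at least 525-fold lower, adjusted p = 0.0584). Pf4, a platelet gene that some macrophages also express, went the other way in Ank_1194, with 7.08, 31.2 and 116 CPM in CM and 16.9, 461 and 41 in FI1. In the list of B and plasma cell genes 1 of 9 fell, against 0.651% of all genes called lower. It was the transcription factor gene Xbp1, which monocytes express too, at 707, 877 and 905 CPM in CM and 269.6, 378 and 216 in FI1 (log2 fold change -1.53 with SE 0.24, adjusted p = 0.00023).

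Several gene groups had no call in either direction. None of 33 interferon-stimulated genes was called, with a median log2 fold change of -0.72, and in 9 of them all FI1 libraries lay below all CM libraries, against 7.97% of all genes. Heat shock (15 genes), oxidative phosphorylation (22), glycolysis and hypoxia (23), cholesterol synthesis (18), phagocyte oxidase and lysozyme (11) and Fc receptor genes (6) had none either, with medians of 0.09, 0.12, 0.51, -0.40, -0.02 and -0.72. In the same order, all FI1 libraries lay above all CM libraries in 2, 3, 6, 0, 1 and 0 genes, against 6.93% of all genes. They lay below in 2, 3, 3, 1, 0 and 2, against 7.97%. Glycolysis and hypoxia genes summed to 2754 to 3022 CPM in CM and 3946 to 4028 in FI1. Lyz2, the lysozyme gene of monocytes and macrophages, was at 31090.3, 46039 and 35115 CPM in CM and 25825, 26581 and 34185 in FI1 (adjusted p = 0.229). Over all genes tested, 1865 had an unadjusted p under 0.05. Among 22 genes for scavenging and lipid handling 3 rose and 1 fell, against 1.23% of all genes called higher and 0.651% lower. Lgals3 (galectin-3) was at 1255, 1772 and 1491 CPM in CM and 2765, 2886 and 2809 in FI1 (log2 fold change 0.90 with SE 0.17, adjusted p = 0.00167). Of 13 genes that interleukin-4 induces, 2 rose, against 1.23% of all genes called higher. These were Ccl24 (above) and Retnla, a secreted protein of alternatively activated macrophages. Retnla was at 0.0998, 0 and 0 CPM in CM and 40.8, 525 and 231 in FI1, a ratio of 5611 with an exact 95% counting interval of 1006 to 221684 (adjusted p = 0.00148), and it kept its call whichever library was left out. Of 16 complement genes, C1qa alone rose, against 1.23% of all genes called higher.

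Ranked by log2 fold change among calls without overlap that reached 32 CPM in each library of the higher group, the 12 largest rises also took in Irg1, which makes the metabolite itaconate in activated macrophages. It was at 0 in CM and at 43.6, 112 and 558 CPM in FI1 (at least 2256-fold, adjusted p = 0.00335). The myelin protein gene Pmp22 was at 0 against 64, 416 and 76.7 CPM (adjusted p = 0.00193), the hyaluronan synthase gene Has1 at 0 against 34.7, 235 and 271 CPM (adjusted p = 0.00882), and the mitotic spindle gene Tacc3 at 0 against 142, 101 and 220.2 CPM (adjusted p = 0.0194). Irg1 and Pmp22 kept their calls in every fit without a library, Has1 lost its call without Bld_1470 or Bld_1508 (adjusted p 0.0531 to 0.0534) and Tacc3 without any one CM library (adjusted p 0.089 to 0.111). Among the 12 largest falls, Ceacam1, an adhesion molecule gene, was at 770.3, 769 and 555 CPM in CM and 125, 165 and 96.8 in FI1 (log2 fold change -2.44 with SE 0.48, adjusted p = 0.0031). Il2rg, the common chain of several interleukin receptors, was at 616, 462 and 627 against 100.4, 34.6 and 185 CPM (log2 fold change -2.41 with SE 0.43, adjusted p = 0.00115). It lies on the X chromosome, as does Syap1, at 100.3, 102 and 117 CPM in CM and 2.73, 38.6 and 3.19 in FI1 (log2 fold change -2.86 with SE 0.75, adjusted p = 0.0378).

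Ank, Ctla2a and Ptp4a3 fell to no count in any FI1 library. Ank, a pyrophosphate transporter gene, was at 41.2, 75.9 and 126 CPM in CM (at least 465-fold lower in FI1, adjusted p = 0.0167). Ctla2a, a protease inhibitor gene, was at 65.1, 91.1 and 79.1 CPM in CM (at least 449.9-fold, adjusted p = 0.00751), and the phosphatase gene Ptp4a3 at 88.1, 66 and 39.1 CPM (at least 369-fold, adjusted p = 0.00425). Pygb, a glycogen phosphorylase gene, was at 44.3, 73.6 and 53.1 against 0.594, 0 and 0 CPM (adjusted p = 0.0278), and Tmx3, a thioredoxin-like protein gene, at 243, 119 and 163 against 3.45, 35.4 and 42.5 CPM (adjusted p = 0.0295). Pira6, one of a family of near-identical receptor genes whose separate levels are uncertain, was at 65.6, 45 and 35.7 against 0.238, 1.73 and 0 CPM (adjusted p = 0.00299). Ceacam1, Il2rg, Ctla2a, Ptp4a3 and Pira6 kept their calls in every fit without a library. Ank lost its call without any one FI1 library (adjusted p 0.0657 to 0.0731), Pygb without Bld_1506, Bld_1508, Ank_1194 or Ank_1392 (adjusted p 0.0502 to 0.128), Syap1 without any one CM library, Ank_1167 or Ank_1392 (adjusted p 0.0809 to 0.175) and Tmx3 without Bld_1470, Bld_1508, Ank_1167 or Ank_1194 (adjusted p 0.0636 to 0.14). With sex in the fit Syap1 and Tmx3 lost theirs (adjusted p = 0.0567 and 0.122).

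The same contrast in HUPO mice shares no library with the controls and is less divided by sex, as the 3 HUPO FI1 libraries and 2 of the 3 HUPO CM libraries carried Xist. It called 125 of 12450 genes (1%), 106 higher (0.851%) and 19 lower (0.153%). Of the 234 control calls, 59 were called in the same direction in HUPO mice (25.2% of the control calls and 47.2% of the HUPO calls), 1 in the opposite direction, and 198 had a log2 fold change of the same sign. Cd14 was at 300.5, 458 and 315 CPM in HUPO CM and 3047, 5049 and 5544 in HUPO FI1 (log2 fold change 3.67, adjusted p = 1.85e-10). Il1b was at 133, 79 and 40.7 against 2037, 1169 and 1601 CPM (adjusted p = 2.51e-06), Ccl2 at 2.32, 0.271 and 9.67 against 243, 314 and 435 (adjusted p = 0.000182), and Fth1 at 3396, 4429 and 2870.4 against 6892, 5992 and 11935 (adjusted p = 0.000483). In these 4 genes every HUPO FI1 library lay above every HUPO CM library. Ngp was at 0 in HUPO CM and at 5279, 3333 and 2562 CPM in HUPO FI1 (adjusted p = 0.0166), and the neutrophil markers summed to 28077, 20456 and 20862 CPM in HUPO FI1 and 1433, 7448 and 1019.7 in HUPO CM. Lyve1, in contrast, was at 0, 0 and 2.82 CPM in HUPO FI1 and 0 in HUPO CM, and Prg4 at 6.09, 3.79 and 13.9 against 570.3, 87.3 and 2802 CPM (adjusted p = 0.603 and 0.2). Cd74 was at 13930.2, 8590.0 and 16998 CPM in HUPO CM and 4546, 5365 and 2784 in HUPO FI1 (log2 fold change -1.64, adjusted p = 0.0323), H2-Ab1 at 5158, 2917 and 6214 against 1069.8, 1391 and 543 (adjusted p = 0.0558), and Ciita at 92.5, 109 and 257 against 4.4, 20.0 and 17.7 (adjusted p = 0.312). Nr4a1 was at 355, 521 and 396 against 282, 178 and 189 CPM and was not called (adjusted p = 0.214). Ly6c2 was at 2564, 2341 and 3037 CPM in HUPO CM and 3555, 3418 and 2553 in HUPO FI1 (adjusted p = 1).

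**Figure D4:**
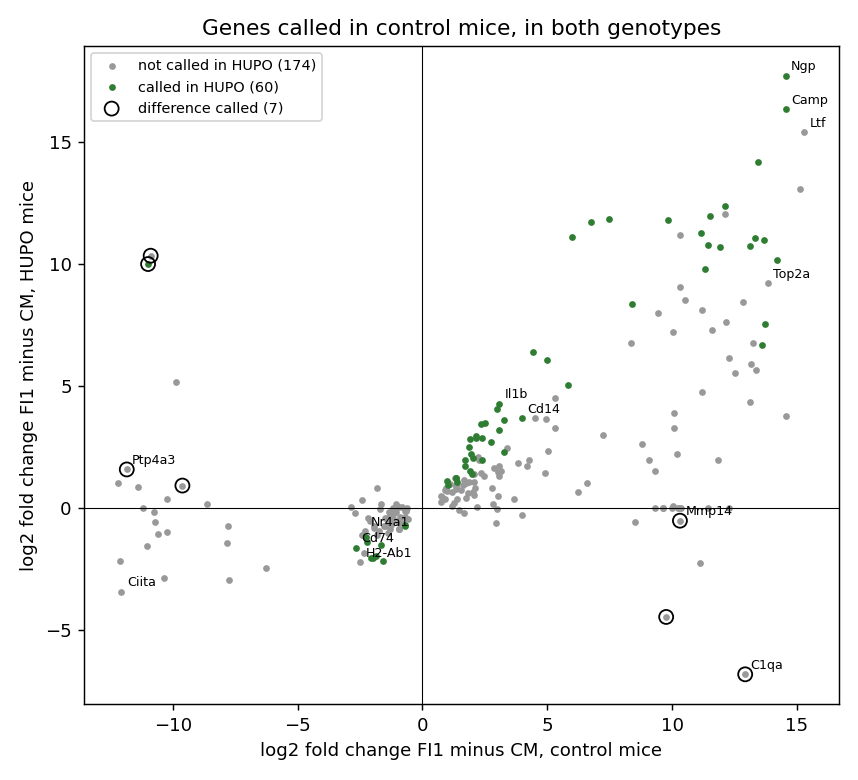
Fitted log2 fold change (FI1 minus CM) in HUPO mice against control mice for the 234 genes called in controls, with 60 genes also called in HUPO mice in green and rings on 7 genes whose difference between genotypes was called. Most points lie in the upper right and lower left, and the extreme values belong to genes at 0 counts in a group, whose fitted size is set by the prior count.

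The difference between the contrasts, tested as an interaction, was called for 15 of 12450 genes (0.12%), 4 with a larger log2 fold change in controls than in HUPO mice (0.0321%) and 11 with a smaller one (0.0884%), and 7 of these were among the control calls. A fit to the 12 libraries of both genotypes called none of them at an adjusted p under 0.05 (671 genes at an unadjusted p under 0.05). Mmp14 was at 0 in control CM, 17.8, 31.4 and 18 CPM in control FI1, 63.1, 56.6 and 80.8 in HUPO CM and 59.4, 13.3 and 65.2 in HUPO FI1 (adjusted p of the difference = 0.0157). C1qa was at 0 in control CM, 28.2, 384 and 0 CPM in control FI1, 16.7, 0 and 24.4 in HUPO CM and 0, 0.417 and 0 in HUPO FI1 (adjusted p of the difference = 0.0157). Ptp4a3 was at 88.1, 66 and 39.1 CPM in control CM, 0 in control FI1, 8.26, 0.271 and 16.8 in HUPO CM and 17.2, 16.3 and 41.4 in HUPO FI1 (adjusted p of the difference = 0.0378). Dusp1 did not differ by a call in controls, as given above, but fell in HUPO mice, from 2849.7, 2709 and 2645 CPM in CM to 1243, 767 and 985 in FI1 (adjusted p = 6.92e-05, adjusted p of the difference = 0.0157).

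Levels in the other groups of the series place the 2 populations. Ly6c2 averaged 647 CPM (512 to 899) in control CM, 1788 CPM (1231.3 to 2623) in control FI1, 2647 CPM (2341 to 3037) in HUPO CM and 3175 CPM (2553 to 3555) in HUPO FI1, with the range over 3 libraries in parentheses. HUPO FI2 averaged 1056 CPM (700.4 to 1293), and the other 8 groups averaged at most 77.7 CPM, with 0 in control NCM and control FI3. In the order control CM, HUPO FI2, control FI1, HUPO CM and HUPO FI1, the range of each group overlapped that of its neighbour. Cd14 averaged 5724 CPM (4083 to 7135) in control FI1, 3963 CPM (2901 to 5231) in control FI3 and 2369 CPM (2179 to 2483) in control FH1, against 180.1 CPM (126 to 210.4) in control NCM, and every library of these ankle groups lay above every control NCM and control CM library. H2-Ab1 averaged 293 CPM (57.9 to 729) in control FI1, between 50.2 CPM (38.6 to 72.5) in control FH1 and 22942 CPM (21553 to 25468) in control FI3. Ngp averaged 4899 CPM (4140.2 to 5659.6) in control FI1 and 3725 CPM (2562 to 5279) in HUPO FI1, and was at 0 in control FI3 and 84.9 CPM (0 to 255) in control FH1.

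**Figure D5:**
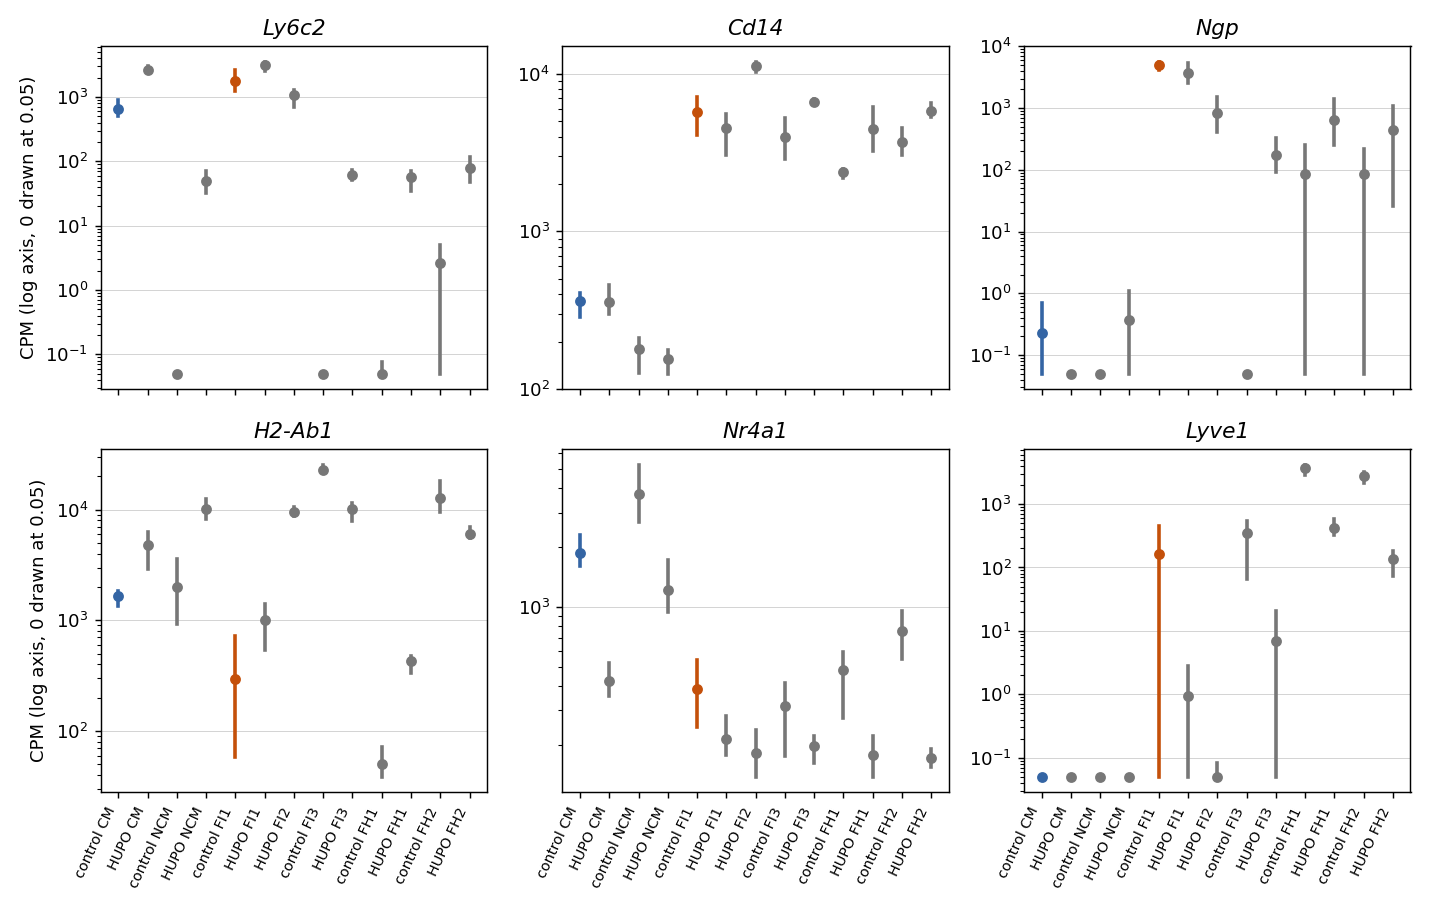
Mean CPM (points, log axis, 0 drawn at 0.05) and the range over 3 libraries (lines) of 6 genes in the 13 groups, with control CM in blue, control FI1 in orange and the other groups in grey. Control FI1 is among the Ly6c2-expressing groups, has Cd14 above the control blood groups and Nr4a1 below control CM.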

How the data were processed

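RNA was prepared from sorted cells with PicoPure, amplified with SMART-Seq v4, made into Nextera XT libraries and sequenced on a NextSeq 500 as single 75-base reads, per the labels' protocols, which name no step that keeps strand. Whole-number read counts per gene symbol were deposited for each library, per the file headers and values. The submitters' processing notes name mm10, FastQC, STAR, HTSeq and Cufflinks, with versions not given in the sources used here. Without strand, reads of overlapping antisense genes cannot be separated.

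Counts of all 39 libraries were fitted in edgeR 4.0.16 (R 4.3.3, limma 3.58.1) with a mean for each of 13 groups, the default expression filter (12450 of 23337 symbols), TMM scaling factors of 0.83 to 1.16, a trended dispersion (median 2.29) and a robust quasi-likelihood test with 26 residual degrees of freedom, which takes libraries of the same mouse in different groups as independent. Sharing the spread over 13 groups lets 3 against 3 libraries be tested, where an exact permutation test could not give a p under 0.1. P-values were adjusted by Benjamini-Hochberg over all genes tested, and a gene was called at an adjusted p under 0.05. SE is the absolute log2 fold change divided by the square root of F. Folds against a group with no counts are bounds from 3 counts over the group, and these and the 95% intervals cover counting error only. Alternatives were a fit to the compared libraries, RLE and upper-quartile scaling, DESeq2 1.42.0, other filters, each library left out, a term for sex and tagwise dispersion. On simulated counts with 200 changed genes among 12276, control FI1 against CM, 81 of 100 changes of 4 on the log2 scale and 93 of 100 of 6 were recovered, and 3 of 12076 unchanged genes were called. The changed genes were drawn only from the more highly expressed genes, so recovery at low levels was not tested. Simulated libraries were independent and followed the trended dispersion of the fit. No 2 libraries of the series held counts that agreed within sampling noise.

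The genes compared and the gene lists were chosen with earlier results of these data known. Named were Cflar, Itgax, Emr1 and Ly6c2, in either direction the 12 largest changes among calls with no overlap and at least 32 CPM in each library of the higher side, and up to 4 genes a list with the smallest p. Other named genes, such as Tnf, Il6, Tlr4, Mpo, S100a8, Treml4, Rgs1 and Fosl1, were chosen after their values were seen. Promoter windows came from RefSeq (GRCm38.p6) and positions from the GENCODE annotation of mm10. Some genes of the lists are counted but not reported here by name.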

Additional observations from a re-analysis of the deposited data

Results flagged for a closer look

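In 15 of 12450 genes the difference between FI1 and CM itself differed between control and HUPO mice, by edgeR's interaction test. Mmp14 was at 0 in control CM and 17.8, 31.4 and 18 CPM in control FI1, but at 63.1, 56.6 and 80.8 CPM in HUPO CM and 59.4, 13.3 and 65.2 in HUPO FI1 (adjusted p of the difference = 0.0157). C1qa was at 0 in control CM and 28.2, 384 and 0 CPM in control FI1, against 16.7, 0 and 24.4 CPM in HUPO CM and 0, 0.417 and 0 in HUPO FI1 (0.0157). Creb5, a transcription factor gene, was at 0 in control CM and 13.2, 26.2 and 6.39 CPM in control FI1, against 25.7, 39.5 and 0 CPM in HUPO CM and 0, 0 and 2.82 in HUPO FI1 (adjusted p of the difference = 0.0403). These 3 genes had their counts in FI1 in controls and in CM, or in both, in HUPO mice.

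Bmi1, a Polycomb gene, was at 43.9, 0.69 and 62.3 CPM in control CM and 0 in control FI1, against 0 in HUPO CM and 39.2, 14 and 0 CPM in HUPO FI1 (adjusted p of the difference = 0.0157). The Wnt co-receptor gene Lrp6 was at 0, 55.2 and 44.3 CPM in control CM and 0 in control FI1, against 0 in HUPO CM and 14.1, 26.3 and 27 CPM in HUPO FI1 (adjusted p of the difference = 0.0157). Ptp4a3 was at 88.1, 66 and 39.1 CPM in control CM and 0 in control FI1, against 8.26, 0.271 and 16.8 CPM in HUPO CM and 17.2, 16.3 and 41.4 in HUPO FI1 (adjusted p of the difference = 0.0378). 0610009B22Rik was at 32.7, 7.73 and 0.716 CPM in control CM and 0 in control FI1, against 30.9, 21 and 21.7 CPM in HUPO CM and 77.2, 33.3 and 27 in HUPO FI1 (adjusted p of the difference = 0.0478). Bmi1 was the 1 control call that HUPO mice called in the opposite direction.

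Dusp1 was the one of the 15 with the highest counts in all 4 groups, at 2250.3, 1975 and 2084 CPM in control CM, 2587, 2285 and 1624 in control FI1, 2849.7, 2709 and 2645 in HUPO CM and 1243, 767 and 985 in HUPO FI1 (adjusted p of the difference = 0.0157). None of the 15 was called when only the 12 libraries of the 4 groups were fitted, where no gene passed an adjusted p of 0.05.

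The other 7 of the 15 were not called in controls and had at most a few counts in HUPO CM. They were Dync1li1 (adjusted p of the difference = 0.0157), Nrm (0.0362), Spred1 (0.0362), Tusc3 (0.0362), Ptov1 (0.0389), Slc35d1 (0.0389) and Tef (0.0389). Dync1li1, a dynein subunit gene, was at 33.2, 29 and 77.3 CPM in control CM and 76, 26.5 and 45.5 in control FI1, against 0, 0.135 and 0 in HUPO CM and 15.1, 114 and 73.9 in HUPO FI1. The other 6 had no count in HUPO CM, and their control CM means were 21.4 to 38.1 CPM.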

How the results depend on the processing

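The 234 calls between control FI1 and CM became 44 in a fit to those 6 libraries (32 shared with the 234, 8745 genes tested), 1763 with DESeq2 (233 shared), 410 with tagwise dispersion (234 shared), 151 with a term for sex (136 shared) and 83 without both FI1 libraries rich in Prg4 (68 shared). With a single library left out the count ranged from 128 to 274. RLE scaling gave 231, upper-quartile scaling 233, no filter on low counts 212, a filter of 10 CPM in 3 libraries 244, and leaving out genes of chromosomes X and Y, an alternative chosen after seeing the data, 224. The 125 HUPO calls became 48 in a fit to the compared libraries, 1544 with DESeq2, 132 with RLE, 133 with upper-quartile scaling and 107 without the filter. The 15 calls of the difference became 0 in the 12-library fit (671 genes at an unadjusted p under 0.05), 1158 with DESeq2, 16 with RLE, and 14 with upper-quartile scaling or without the filter. The cause of these changes was not tested. Prg4 turned direction, to a log2 fold change of -0.019, without Ank_1194 and Ank_1392, the only libraries of the pair of groups in which it was high. Across the 16 alternatives 12 of the 234 genes stayed called in each, and 78 in the 6 fits that left out 1 library. No paired analysis was possible because the CM mice (Bld_1470, Bld_1506 and Bld_1508) and the FI1 mice (Ank_1167, Ank_1194 and Ank_1392) share no number, and mice that recur in other groups of the fit were not modelled. Genes at 0 in a group have folds bounded by depth, which was lowest in Ank_1194 (3132775 counts), and sex, tissue source and population cannot be told apart in the control libraries.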
